A study of Mus musculus with 8 samples.

Results

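The serotonin receptor genes were examined in the frontal cortex of mice that lack HAR123. The 10 genes were chosen by symbol from the 55536 genes of the count table, each symbol matching a single GENCODE M21 gene of the GRCm38 build. They are Htr1a, Htr1b, Htr1f, Htr2a, Htr2c, Htr3a, Htr4, Htr5a, Htr6 and Htr7. RNA-seq of rRNA-depleted total RNA was available as 4 WT and 4 HAR123-KO libraries, all from mice 8 weeks old. The sources used here do not say whether each library came from a different mouse. WT mice were littermate controls on a C57BL/6J background. HAR123-KO mice carry a CRISPR-Cas9 deletion of the mouse counterpart of HAR123, an enhancer within an intron of Smg6, in every cell of the body. The deleted sequence is not exonic, so counts over exons do not check the deletion itself. The number of founder lines behind them is not given in the sources used here. The samples are whole pieces of frontal cortex, so fewer cells of a type and less RNA per cell cannot be told apart.

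Serotonin reaches the frontal cortex through axons of the raphe nuclei in the brainstem, where it is made. Its receptors fall into classes by what they couple to. The Htr1 and Htr5 receptors signal through inhibitory G proteins and dampen firing or transmitter release, the Htr2 receptors activate phospholipase C through Gq and raise excitability, and Htr4, Htr6 and Htr7 raise cyclic AMP through stimulatory G proteins. Htr3a is the exception, a subunit of a ligand-gated cation channel. Serotonin in the frontal cortex is known for its part in reversal learning and impulse control, and Htr2c is also one of the most abundant receptors of the choroid plexus, the epithelium that makes cerebrospinal fluid.

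Promoter sequences from RefSeq (GRCm38.p6) are shown for Htr2c, the member whose libraries separated by genotype, for Htr2a, the most abundant member, and for Htr1a, the inhibitory receptor set against Htr2a. The windows run from 250 bases before to 50 bases after the annotated start, 5′ to 3′ on the strand of the gene, and CG dinucleotides are in capitals. That of Htr2c is chrX:146962263-146962562 on the plus strand, that of Htr2a chr14:74640624-74640923 on the plus strand, and that of Htr1a chr13:105443443-105443742 on the plus strand.
Htr2c: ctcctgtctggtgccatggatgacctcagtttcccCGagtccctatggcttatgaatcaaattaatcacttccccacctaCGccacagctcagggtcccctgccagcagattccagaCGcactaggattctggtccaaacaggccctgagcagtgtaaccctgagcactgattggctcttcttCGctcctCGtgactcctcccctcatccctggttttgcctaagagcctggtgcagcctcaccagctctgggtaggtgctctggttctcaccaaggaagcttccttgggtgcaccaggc
Htr2a: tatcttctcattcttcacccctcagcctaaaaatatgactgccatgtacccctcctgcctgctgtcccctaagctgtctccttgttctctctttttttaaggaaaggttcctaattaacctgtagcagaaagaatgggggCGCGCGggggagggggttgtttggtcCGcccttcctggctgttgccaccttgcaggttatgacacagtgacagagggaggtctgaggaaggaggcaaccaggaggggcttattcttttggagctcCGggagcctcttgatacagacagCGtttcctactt
Htr1a: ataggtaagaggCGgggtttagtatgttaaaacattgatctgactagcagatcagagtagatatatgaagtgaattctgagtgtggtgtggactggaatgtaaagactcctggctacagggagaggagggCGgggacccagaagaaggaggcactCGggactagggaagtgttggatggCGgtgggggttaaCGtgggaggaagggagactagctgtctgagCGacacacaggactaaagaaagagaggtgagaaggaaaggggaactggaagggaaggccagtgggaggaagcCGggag
The windows of Htr2c, Htr2a and Htr1a held 5, 6 and 7 CG dinucleotides, against a median of 7 over all 32851 promoter windows of the table, so all 3 lay at or below the median. Htr7 had the CG-richest window among the members, with 46, a number that 98.6% of all windows did not exceed. Each of 4 motifs was searched on both strands, with overlaps allowed. The GC box GGGCGG was found in the windows of Htr2a, Htr1a and Htr1f and in 1 of 2 of Htr6, and not in that of Htr2c, and 35.7% of all windows held it. TATAAA (13.6% of all windows), the cyclic AMP element TGACGTCA (1.79%) and TAATCC, the core of the Otx2 site (7.06%), were found in none of the 9 windows given for 8 of the members. The promoters of Htr3a and Htr4 were not analysed here.

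Total counts ran from 13528251 to 17051001 per library, of which 2786320 to 3732172 were on nuclear protein-coding genes. The most abundant row, Gm42418, overlaps ribosomal RNA sequence and held 55.1% to 58.0% of the counts. Pairs of libraries differed by more than sampling noise. Chi-square per degree of freedom, near 1 for noise alone, was 1.21 to 1.30 for pairs of 1 genotype and 1.58 to 1.72 for mixed pairs. Levels are given as counts normalised by DESeq2 size factors.

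The levels of the receptors were compared first, per kilobase of counted exon so that genes of different length can be set side by side. Htr2a was the most abundant member, at 39.9 ± 3.91 normalised counts per kb in WT and 36.9 ± 2.63 in HAR123-KO (n = 4, SD). It stood apart, 2.37 times above the next gene, and its lowest library (33.6 per kb) lay above the highest library of any other member. Htr1b followed with 14.5 ± 1.58 per kb in WT, then Htr5a with 13.9 ± 1.81, Htr1a with 11.6 ± 0.936 and Htr1f with 9.91 ± 0.618 (n = 4, SD). The inhibitory receptors thus took the 4 places after Htr2a in WT, whereas in HAR123-KO the mean of Htr2c (10.7 ± 0.674 per kb) was above that of Htr1f (9.99 ± 2.17 per kb), with overlapping ranges. Htr2c had 8.06 ± 0.451 per kb in WT, Htr6 8.02 ± 3.5, Htr7 5.91 ± 0.952 and Htr3a 5.26 ± 2.46 (n = 4, SD). Htr4 was the scarcest, at 1.78 ± 0.409 per kb in WT (n = 4, SD), and its mean over all libraries was 2.82 times below that of Htr3a. In 8 of the 9 pairs of neighbours in this order the ranges over the 8 libraries overlapped, so that beyond the first place of Htr2a the order is loose. The counted length is the union of all annotated exons, and a gene with a long untranslated end that is seldom used is placed too low on this scale.

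**Figure D1:**
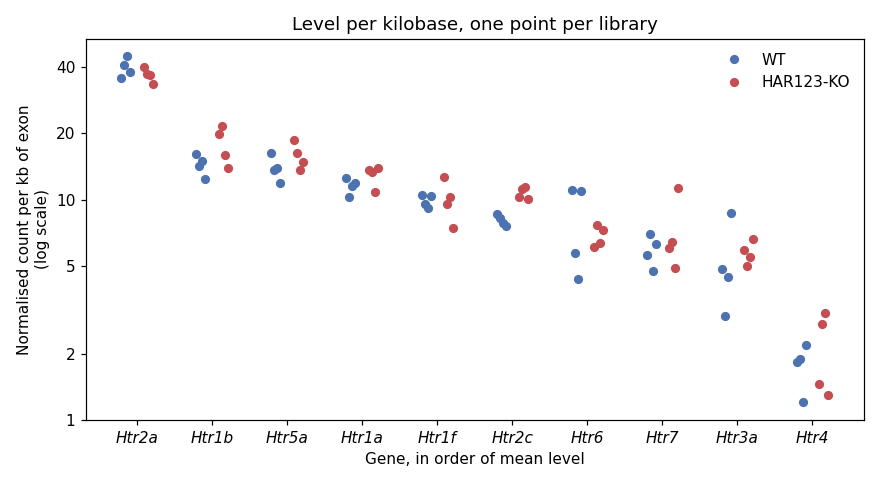
Normalised count per kilobase of exon on a log scale for the 10 receptor genes in order of mean level, with 1 point per library (WT blue, HAR123-KO red). Htr2a lies above all others in every library, and Htr4 has the lowest mean.

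Whether the loss of HAR123 changes the receptors was then asked by comparing HAR123-KO with WT in a DESeq2 fit over all genes. None of the 10 genes was past the limits the study used for this tissue, an adjusted p under 0.05 with an absolute log2 fold change over 0.5. Those limits were passed by 0.298% of the 12758 genes with an adjusted p. With no minimum fold change the count was again 0, where 1.69% of all genes were called. By unadjusted p under 0.05 it was 1 of 10 (Htr2c), against 8.78% of all genes, and edgeR and limma-voom each called 1 of the 10 at an adjusted p under 0.05, again Htr2c (2.28% and 2% of all genes). An adjusted p was given to 7 of the 10. Htr3a, Htr4 and Htr6 were under the mean of 17.55 normalised counts at which the filter of DESeq2 stopped. The median log2 fold change of the 7 was 0.18, against -0.0017 over all genes tested, and 8 of the 10 members were higher in HAR123-KO, where 6297 of the 12758 tested genes were. For 3 of the 8 (Htr1f, Htr3a and Htr7) the sign turned when 1 library was left out.

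Htr2c (ENSMUSG00000041380, chromosome X, 146962513 to 147197277, plus strand) encodes the Gq-coupled receptor that restrains dopamine release and appetite, and whose pre-mRNA is edited. It had 79.9, 77.2, 72.9 and 70.6 normalised counts in the WT libraries and 96.2, 104.6, 106.5 and 93.6 in the HAR123-KO libraries. The raw counts behind these were 71, 75, 86 and 66 in WT and 94, 110, 121 and 88 in HAR123-KO. All 4 HAR123-KO libraries lay above all 4 WT libraries, a separation that 7.67% of all tested genes showed in either direction and that 1 of the 10 members showed. The means were 75.2 ± 4.2 in WT and 100.2 ± 6.29 in HAR123-KO (n = 4, SD). The log2 fold change was 0.42 ± 0.14 (SE, DESeq2 95% interval 0.15 to 0.69, unadjusted p = 0.00241, adjusted p = 0.108), or 1.34-fold in the fit. The call therefore depended on the test. Htr2c was not past an adjusted p of 0.05 by DESeq2, and it was by edgeR (adjusted p = 0.0283) and limma-voom (adjusted p = 0.0363), both with a log2 fold change of 0.42, which is under the minimum of 0.5. Over the alternatives the log2 fold change ran from 0.39 to 0.46 and the adjusted p from 0.0283 to 0.449, except with the replicate number as a block, where the unadjusted p was 0.0505 and the adjusted p close to 1.

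The locus of Htr2c holds 8 annotated small RNA genes on the same strand, among them Mir764, Mir1912, Mir1264, Mir1298 and Mir448, none of which overlaps a counted exon of Htr2c. Their rows held 19 raw counts in all over the 8 libraries, and at most 3 for any of them in 1 library. Total RNA libraries of this kind hold fragments of long RNA, so these counts are no measure of the mature miRNAs.

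Htr2a (ENSMUSG00000034997, chromosome 14, 74640840 to 74709494, plus strand) encodes the other Gq-coupled receptor measured here, found on cortical pyramidal neurons and the target of classical hallucinogens. It had 200.4, 229, 252 and 214 normalised counts in WT and 224, 208, 207 and 188 in HAR123-KO. The groups overlapped, and the sign of the log2 fold change was opposite to that of Htr2c, at -0.12 ± 0.09 (SE, DESeq2 95% interval -0.30 to 0.062, adjusted p = 0.826). In fold terms the interval ran from 0.813 to 1.04, the narrowest among the members. Without WT replicate 3, its highest library, the log2 fold change was -0.051. The ratio of Htr2c to Htr2a within a library is all but free of the scaling. It was -1.56 ± 0.19 on the log2 scale in WT and -1.04 ± 0.12 in HAR123-KO (n = 4, SD), higher in all 4 HAR123-KO libraries (-1.21 to -0.95) than in any WT library (-1.77 to -1.32). The difference of 0.52 had a two-sided exact permutation p of 0.0286, the smallest that 70 assignments allow, and 0.0571 after adjustment over the 2 ratios examined. Leaving out any 1 library kept the difference between 0.45 and 0.60, in designs whose smallest exact p is 0.0571. Summed, both Gq-coupled receptors had 280.3 to 325 normalised counts in WT and 282 to 320.5 in HAR123-KO.

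Htr1a (ENSMUSG00000021721, chromosome 13, 105443639 to 105448122, plus strand), the inhibitory receptor of pyramidal neurons and the autoreceptor of serotonin neurons, had 56.3, 46.3, 51.7 and 53.5 normalised counts in WT. In HAR123-KO it had 61.4, 59.9, 48.4 and 62.7. The HAR123-KO libraries other than replicate 3 were above the WT range. The log2 fold change was 0.16 ± 0.18 (SE, DESeq2 95% interval -0.19 to 0.50, adjusted p = 0.918). The ratio of Htr1a to Htr2a was -2.08 ± 0.23 on the log2 scale in WT and -1.82 ± 0.21 in HAR123-KO (n = 4, SD). The ranges overlapped, and the difference of 0.26 did not pass the test (two-sided exact permutation p = 0.171, also 0.171 after adjustment).

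Htr1b (ENSMUSG00000049511, chromosome 9, 81628291 to 81633828, minus strand), a receptor of axon terminals that limits transmitter release, had the second-smallest p among the members. It had 76.6, 66.9, 71.2 and 58.8 normalised counts in WT and 94.2, 101.7, 75.7 and 65.9 in HAR123-KO. The groups overlapped, with HAR123-KO replicates 1 and 2 above the WT range and replicates 3 and 4 within it. The log2 fold change was 0.30 ± 0.16 (SE, DESeq2 unadjusted p = 0.0516, adjusted p = 0.573). An exon of the antisense gene D430036J16Rik overlaps it on the opposite strand. That row held 10 to 31 raw counts per library, and since the strand setting of the counting was not stated, reads of the pair cannot be told apart with certainty.

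Htr5a (ENSMUSG00000039106, chromosome 5, 27842149 to 27855088), an inhibitory receptor found mainly in the brain, had 64.2 to 87.8 normalised counts in WT and 73.1 to 100.3 in HAR123-KO, and the groups overlapped (log2 fold change 0.18 ± 0.15, SE, adjusted p = 0.848 by DESeq2). Without HAR123-KO replicate 1, its highest library, the log2 fold change of Htr5a was 0.098. Htr1f (ENSMUSG00000050783, chromosome 16, 64924729 to 65105854), the receptor that the antimigraine drug lasmiditan targets, had almost equal means, 25.5 ± 1.59 in WT and 25.8 ± 5.61 in HAR123-KO (n = 4, SD). The interval of its log2 fold change of 0.019 ran from -0.49 to 0.53 and so held the value of Htr2c, 0.42, as well as 0, and it was -0.11 without HAR123-KO replicate 1. Summed, the 4 inhibitory receptors had 203 to 248 normalised counts in WT and 224 to 289 in HAR123-KO, a sum in which the groups also overlapped.

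Among the receptors that raise cyclic AMP, Htr7 (ENSMUSG00000024798, chromosome 19, 35958734 to 36057507), a receptor linked to circadian rhythm and mood, had 19.1, 23.7, 16.1 and 21.4 normalised counts in WT. In HAR123-KO it had 20.5, 21.9, 16.7 and 38.3. Only HAR123-KO replicate 4 was above the WT range, and without it the log2 fold change went from 0.27 to -0.025. Htr6 (ENSMUSG00000028747, chromosome 4, 139061108 to 139075570), a receptor of striatal and cortical neurons that was studied as a drug target for memory, was split within WT. It had 25.9 and 25.7 normalised counts in WT replicates 1 and 4 and 13.4 and 10.2 in replicates 2 and 3, whereas the HAR123-KO libraries lay in between, from 14.3 to 18.1. Htr4 (ENSMUSG00000026322, chromosome 18, 62324204 to 62496577), best known as the receptor that speeds gut motility and also present in the striatum and hippocampus, had 5.93 to 10.7 normalised counts in WT and 6.38 to 14.97 in HAR123-KO. The 95% intervals of the log2 fold change, -0.31 to 0.85 for Htr7, -0.85 to 0.46 for Htr6 and -0.56 to 1.16 for Htr4, all held both 0 and the 0.42 of Htr2c, so a difference of that size is not excluded for these 3 genes. Leaving out 1 library brought Htr6 from -0.20 to -0.0033 (WT replicate 4) and Htr4 from 0.30 to 0.064 (HAR123-KO replicate 3). Their sum was 32.2 to 57.8 normalised counts in WT and 42.0 to 61.7 in HAR123-KO.

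Htr3a (ENSMUSG00000032269, chromosome 9, 48899213 to 48911099), the channel subunit that marks a class of cortical interneurons, had 10.1, 6.18, 9.32 and 18.2 normalised counts in WT and 12.3, 10.5, 11.4 and 13.8 in HAR123-KO. The WT libraries spread over a wider range than the HAR123-KO libraries, which all lay within it. The log2 fold change was 0.14 ± 0.40 (SE), with an interval of -0.64 to 0.92 and no adjusted p, and it was -0.054 without WT replicate 2 and 0.49 without WT replicate 4. Markers of interneurons, among them Vip, Reln and Ndnf of the Htr3a class, also overlapped between the genotypes as a sum (4171 to 4288 normalised counts in WT and 4148 to 4254 in HAR123-KO). Of these 12 genes, 11 had an adjusted p and 0 were called by DESeq2, against 1.69% of all tested genes. An unadjusted DESeq2 p under 0.05 was found for 2 of the 12, against 8.78%.

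**Figure D2:**
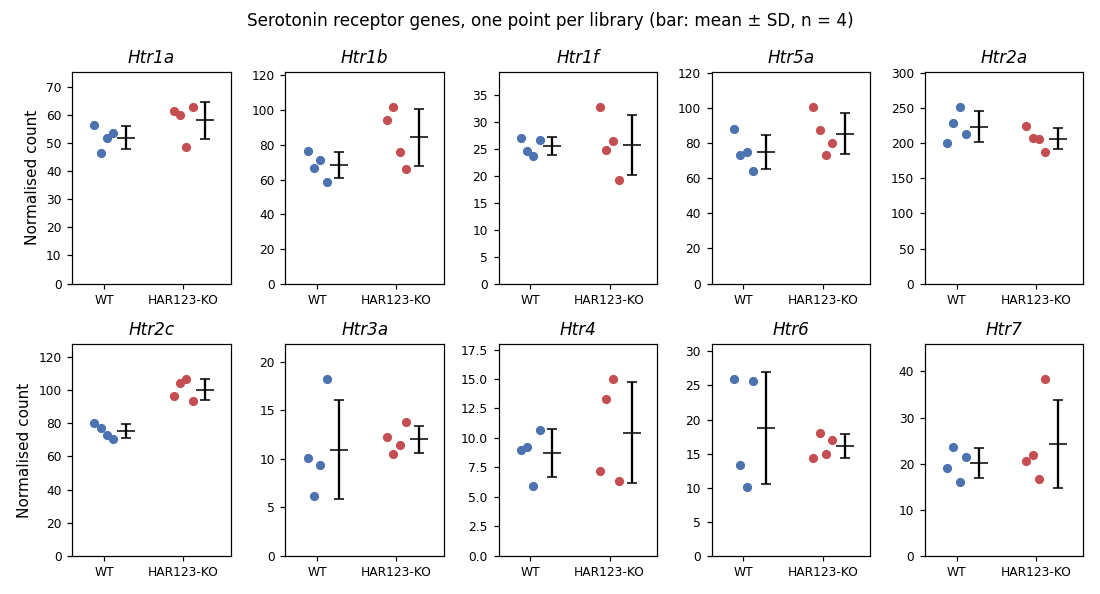
Normalised counts of the 10 receptor genes, with 1 point per library and the mean ± SD of 4 libraries beside them, on axes that start at 0. The HAR123-KO libraries lie wholly above the WT libraries for Htr2c and overlap them for the other 9 genes.

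**Figure D3:**
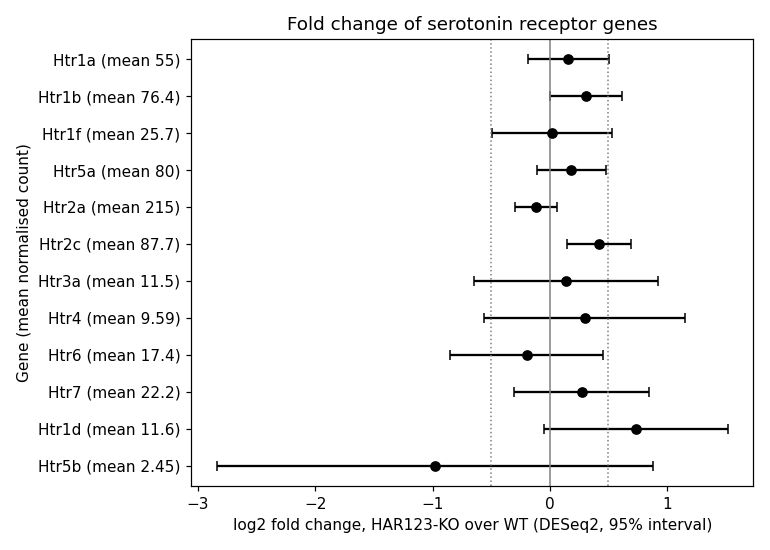
DESeq2 log2 fold change of HAR123-KO over WT with its 95% interval for the 10 genes and for Htr1d and Htr5b, the mean normalised count being given beside each name (dotted lines: 0.5 either way). The interval of Htr2c, from 0.15 to 0.69, is the only one among the 10 that does not reach 0.

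The other 4 annotated serotonin receptor genes were scarce. Htr1d (ENSMUSG00000070687, chromosome 4), an inhibitory receptor of nerve terminals, had 10.1, 11.3, 5.08 and 8.56 normalised counts in WT and 18.4, 13.3, 14.1 and 11.7 in HAR123-KO. The groups did not overlap, and the log2 fold change was 0.74 ± 0.40 (SE, DESeq2 unadjusted p = 0.0658, no adjusted p). By edgeR the adjusted p of Htr1d was 0.314. Htr5b had 20 raw counts in all 8 libraries together, Htr2b had 2, and Htr3b, the partner subunit of Htr3a, had 0 of 25435816 counts on nuclear protein-coding genes, which allows up to 3. An exon of Psmd1 overlaps Htr2b on the opposite strand.

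Htr2c was then read beside genes of the choroid plexus. Of the 18 markers of that tissue, 18 had a higher mean in HAR123-KO, where 6297 of the 12758 tested genes were higher. In 12 the groups did not overlap, against 7.67% of all tested genes. Only 3 of the 18 had an adjusted p, the others being under the mean of 17.55 normalised counts at which the filter stopped. Ttr, the carrier of thyroid hormone and retinol that choroid plexus epithelium secretes, had 65.3, 74.1, 62.7 and 70.6 normalised counts in WT and 651, 661, 616 and 637 in HAR123-KO. The other 17 summed to 80.5 to 95.2 in WT and 199.7 to 237 in HAR123-KO. Kl, which encodes the hormone Klotho, rose by 1.99 in log2 units (adjusted p = 3.89e-07 by DESeq2), while Clic6, an intracellular channel protein, had a log2 fold change of 1.61 ± 0.37 (SE) and no adjusted p. None of the 18 was at 0 in all libraries. The transcription factor Otx2, which specifies this epithelium, had 0, 0, 0.847 and 0 normalised counts in WT and 3.07, 4.75, 7.92 and 4.25 in HAR123-KO. From WT to HAR123-KO the mean of Ttr rose by 573 normalised counts and the sum of the other 17 markers went up by 128, beside a difference of 25.1 for Htr2c. Htr2c is also expressed by neurons. The ratio of the HAR123-KO mean to the WT mean was 1.33 for Htr2c, 9.41 for Ttr and 2.46 for the sum of the other 17 markers. Slc13a4, a sulfate transporter, made up 42.4 of the 87.4 normalised counts of that sum in WT and had 44.4 in HAR123-KO (log2 fold change 0.077 ± 0.21, SE, adjusted p = 0.984 by DESeq2). Without Slc13a4, singled out after its values were seen, the ratio of the sum was 3.79, and the median log2 fold change of the 18 markers was 1.86. The part of choroid plexus RNA in the difference of Htr2c was not tested.

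Sums of other marker lists were read beside Htr2c in the same way. The 14 markers of striatal projection neurons, cells that also express Htr2c, Htr4, Htr6 and Htr1b, summed to 6498 to 6613 normalised counts in WT and 8582 to 8683 in HAR123-KO, or 1.32 times the WT mean. By DESeq2 11 of the 14 rose at an adjusted p under 0.05, against 0.972% of all tested genes. Tac1 and Gpr6 were higher and not called (adjusted p = 0.0647 and 0.0781). Pdyn was lower (log2 fold change -0.14, adjusted p = 0.917). The 7 markers of deep cortical layers, where Htr2c is found in layer 5 neurons, summed to 1482 to 1630 in WT and 1685 to 1744 in HAR123-KO, 1.12 times. DESeq2 called 0 of 7 (1.69% of all tested genes), and 4 had an unadjusted p under 0.05 (8.78%). Of the 7, 6 were higher, and Fezf2 was not (log2 fold change -0.055, adjusted p = 0.985 by DESeq2). The sum of 6 claustrum and layer 6b markers was lower, at 782 to 909 in WT and 609 to 650 in HAR123-KO, with 2 of 6 called lower (0.713% of all tested genes). The 6 upper layer markers summed to 3710 to 3848 in WT and 3403 to 3583 in HAR123-KO, with 1 of 6 (Cux2) called lower, beside the same 0.713%. Markers of cortical layers and of striatal neurons were thus both plentiful in every library labelled frontal cortex. Beside the 1.32 of the striatal sum, the fitted fold was 1.24 for Htr1b, 1.23 for Htr4 and 0.873, the other way, for Htr6. Htr1b was not called (adjusted p = 0.573 by DESeq2), and Htr4 and Htr6 had no adjusted p. The interval of each of these receptors held a change of the striatal size as well as none. The part of these cell types in the difference of Htr2c, or in the values of the other receptors, was not tested.

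**Figure D4:**
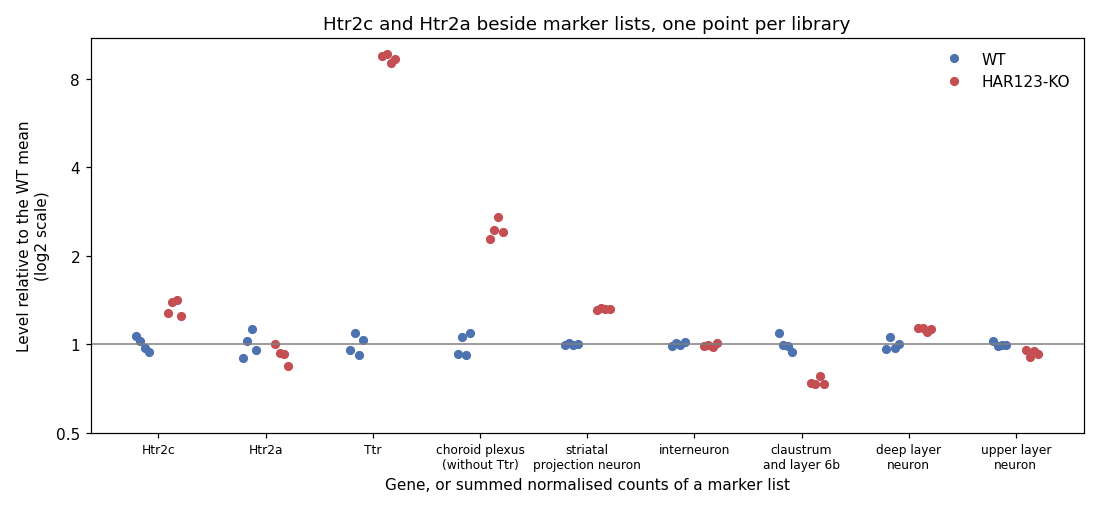
Htr2c, Htr2a, Ttr and summed marker lists in each library relative to the WT mean, on a log2 axis (WT blue, HAR123-KO red). The HAR123-KO mean was 1.33 times the WT mean for Htr2c, 1.32 times for the striatal sum and 9.41 times for Ttr. For the choroid plexus sum without Ttr it was 2.46 times. The part of these cell types in the difference of Htr2c was not tested.

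The genes whose profile over the 8 libraries was most like that of Htr2c were Cep126, Galnt13, Rgs9, Enpp2 and Fars2. Likeness was measured by the root mean square difference of log2(normalised count + 1) around the mean of each gene, over 8806 protein-coding genes with a mean of at least 50 normalised counts, and it was 0.0578, 0.0589, 0.0724, 0.0790 and 0.0817 for these 5, against a median of 0.242. Their log2 fold changes ran from 0.36 to 0.46, close to that of Htr2c, as the measure favours. Rgs9, a regulator of G protein signalling, is on the list of striatal markers, and Enpp2 encodes autotaxin, which choroid plexus and oligodendrocytes make. Galnt13, Rgs9 and Enpp2 had adjusted p values under 0.05 (DESeq2, 0.0109, 1.2e-11 and 5.41e-20), and Cep126 and Fars2 did not (0.199 and 0.480).

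The genes that make, move and break down serotonin were scarce or overlapped between the genotypes. Serotonin neurons have their cell bodies in the brainstem, and their markers were close to absent. Slc6a4, the serotonin transporter, and Fev, their transcription factor, had 0 counts in all 8 libraries, and Tph2, the enzyme that makes serotonin in the brain, had 4.09 ± 1.84 normalised counts in WT and 3.45 ± 1.42 in HAR123-KO (n = 4, SD). Among the 11 genes of this list, 3 received an adjusted p and 0 were called by DESeq2, edgeR or limma-voom. At an unadjusted DESeq2 p under 0.05 there were 0, against 8.78% of all tested genes. Maoa and Maob, the monoamine oxidases, had log2 fold changes of -0.15 ± 0.15 and -0.23 ± 0.18 (SE, adjusted p = 0.904 and 0.834 by DESeq2). Slc29a4, a low-affinity uptake carrier, had -0.18 ± 0.32 (SE, adjusted p = 0.975 by DESeq2). Slc22a3, another such carrier, had 10.4 ± 2.22 normalised counts in WT and 16.7 ± 4.51 in HAR123-KO (n = 4, SD) and no adjusted p, its unadjusted DESeq2 p being 0.0727. Ddc, which completes the synthesis, had 8.89 ± 4.88 and 11.5 ± 4.99, Gch1, which supplies its cofactor chain, 3.18 ± 1.48 and 0.678 ± 0.85, Tph1 2.28 ± 1.56 and 1.42 ± 0.816, and the vesicular transporter Slc18a2 0.515 ± 1.03 and 0.951 ± 1.9 (n = 4, SD).

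The 12 partners of the receptors also gave 0 calls by these 3 tools. At an unadjusted DESeq2 p under 0.05 there was 1 (Mpdz), where 8.78% of all tested genes were. They included the editing enzymes Adar, Adarb1 and Adarb2, of which Adar and Adarb1 edit the Htr2c transcript, with log2 fold changes of -0.055, 0.058 and -0.097. The smallest unadjusted p values were those of Mpdz, a scaffold that binds Htr2c (log2 fold change -0.18 ± 0.08, SE, adjusted p = 0.423 by DESeq2), and Grk2, a kinase that desensitises receptors (-0.063 ± 0.05, SE, adjusted p = 0.837 by DESeq2). The G proteins and effectors on which the receptors act numbered 23, of which 22 had an adjusted p and 3 were called, 2 higher (0.972% of all tested genes were called higher) and 1 lower (0.713% were called lower). Adcy5, the adenylyl cyclase of striatal neurons, rose from 1307 ± 30.0 to 1599 ± 16.3 normalised counts (n = 4, SD), 0.29 ± 0.04 in log2 units (SE, adjusted p = 8.02e-13 by DESeq2). Gnal, the stimulatory G protein of the same neurons, rose by 0.18 ± 0.05 in log2 units (SE, adjusted p = 0.00951 by DESeq2), and all 4 HAR123-KO libraries (1003 to 1056) lay above the WT libraries (833 to 979). Gnao1, the most abundant inhibitory G protein of brain, fell by 0.11 in log2 units (adjusted p = 0.0157 by DESeq2), from 2675 ± 53.5 to 2479 ± 49.95 normalised counts (n = 4, SD). None of the 3 reached the minimum of 0.5. Kcnj9, a subunit of the potassium channel that inhibitory receptors open, had -0.20 ± 0.06 (SE, adjusted p = 0.0653 by DESeq2) and was called lower by edgeR (0.0164) and limma-voom (0.0419). Adcy5 kept its call in all 8 fits that left out a library, Gnal in 4 and Gnao1 in 3. The fits in which Gnal was not called left out WT replicate 1, WT replicate 4, HAR123-KO replicate 2 and HAR123-KO replicate 3 (adjusted p up to 0.165). For Gnao1 they were the same apart from WT replicates 2 and 3 in place of WT replicate 4 (adjusted p up to 0.191). With library totals as size factors Gnao1 was not called (adjusted p = 0.543 by DESeq2). Those totals include Gm42418, and with them the median log2 fold change of all genes was 0.037, against -0.0017 in the main fit. The rises of Adcy5 and Gnal stood beside the striatal sum given above, and the part of striatal RNA in them was not tested. Over the 46 pathway genes, 37 had an adjusted p, 2 rose and 1 fell, and their median log2 fold change was -0.052. The 10 members themselves summed to 564 to 592 normalised counts in WT and 585 to 663 in HAR123-KO, ranges that overlap.

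**Figure D5:**
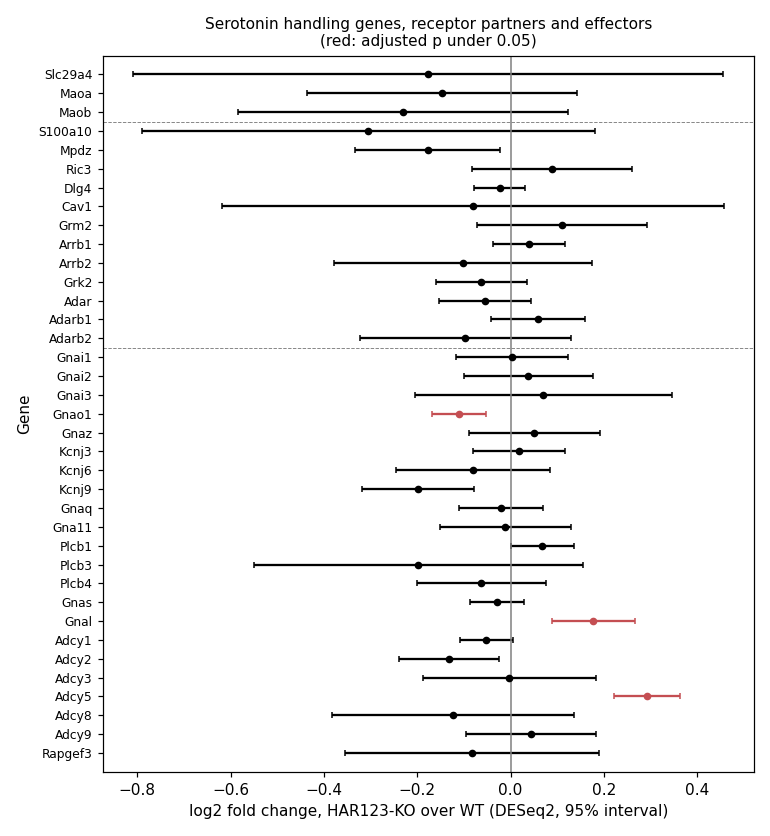
DESeq2 log2 fold change of HAR123-KO over WT with its 95% interval for the 37 serotonin handling genes, receptor partners and receptor effectors that had an adjusted p, in 3 blocks from top to bottom. Adcy5 and Gnal lie to the right of 0 and Gnao1 to the left with an adjusted p under 0.05 (red), and the other 34 are black.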

How the data were processed

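Frontal cortex of WT and HAR123-KO mice, in 4 libraries of each genotype, was sequenced as rRNA-depleted total RNA with a directional kit and paired-end reads. The deposited values are raw counts per gene, which the authors made with STAR 2.5.2b on GRCm38 (Ensembl version 96) and featureCounts over exons. Strand and multi-mapping settings are not given in the sources used here. All 55536 identifiers were found in GENCODE M21 with the same start and end, and symbols were taken from there. The per-sample columns not used numbered 0.

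Libraries were grouped by genotype and numbered from their titles. No source says more about how the replicates of a genotype relate to each other, and p-values measure the spread between these libraries.

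All genes were fitted with DESeq2 1.42.0 (Wald test, R 4.3.3), HAR123-KO against WT, with genotype as the only term, median-of-ratios size factors and Benjamini-Hochberg adjustment after independent filtering (tuned to 0.1), and DESeq2 replaced its parametric dispersion trend by a local regression. Alternatives were edgeR 4.0.16 (quasi-likelihood) and limma-voom (limma 3.58.1), both with TMM factors and filterByExpr, 2 other sets of size factors, other filters, stricter limits, a replicate block and leaving out each library. Ratios of 2 genes used log2(normalised count + 1) and were tested by exact permutation, two-sided, over 70 ways to assign the libraries. DESeq2, edgeR and limma-voom were also run on counts simulated with the means, size factors and dispersions of these data. The permutation test was not.

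Genes were named by rule: the 10 members, the 4 other receptors, the 11 handling genes, called partners and effectors or else the 2 with the smallest unadjusted p per list, Ttr, Kl and Clic6, and the 5 genes most like Htr2c. Others (Otx2, Slc13a4, Cux2, Kcnj9, single partners and interneuron markers) were chosen after their values were seen, as were the promoter motifs. Members and lists were chosen with earlier results of these data known. Ctgf of the claustrum list had no row under that symbol. PCR copies carried no molecular tags, so counting intervals and limits cover counting error only.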

Additional observations from a re-analysis of the deposited data

Results flagged for a closer look

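Of 46 groups of 4 library values examined (the members, Htr1d, Htr5b, Ttr, Kl, Clic6, the marker sums and both ratios), 1 held a library set apart from the other 3 by Dixon's criterion at the 95% level, where chance gives about 2.3. The summed claustrum and layer 6b markers were 649.7 normalised counts in HAR123-KO replicate 3, while the other libraries of that genotype had 609 to 615. In the receptor genes themselves 0 libraries were set apart in this way.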

How the results depend on the processing

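No alternative put a member past both limits (0 of 10 in all 16, the stricter limits included). At an adjusted p under 0.05 with no minimum fold change, the count of members went from 0 to 1 with edgeR and to 1 with limma-voom (Htr2c in both), and was 0 in every fit that left out a library (0 to 0). Of the 147 other values of the members' fold changes, 140 kept their direction and their side of the threshold. The 5 that reversed were Htr1f (0.019 with all libraries) at -0.0028 with the replicate block, -0.019 without WT replicate 3 and -0.11 without HAR123-KO replicate 1, Htr3a (0.14) at -0.054 without WT replicate 2, and Htr7 (0.27) at -0.025 without HAR123-KO replicate 4. Leaving out a library moved these genes up to 0.13, 0.49 and 0.42, and of the others it gave -0.17 to -0.051 for Htr2a, 0.098 to 0.26 for Htr5a, 0.11 to 0.24 for Htr1a, 0.20 to 0.40 for Htr1b, 0.064 to 0.46 for Htr4 and -0.42 to -0.0033 for Htr6. The other 2 were Htr2c with edgeR and limma-voom. The pathway count of 3 became 1 with the replicate block (Adcy5), and 1 to 3 when a library was left out, at its lowest in the fits that lacked WT replicate 1, HAR123-KO replicate 2 or HAR123-KO replicate 3. The difference in the Htr2c to Htr2a ratio was 0.52 with the replicate block, where 4 pairs allow no exact p under 0.125, and 0.447 to 0.600 when a library was left out, where the smallest exact p is 0.0571. Neither can pass 0.05 by construction. Without division by length, 4 of the 10 members kept their place in the order of levels. Same-numbered libraries of the genotypes did not deviate together (correlations from -0.0274 to 0.0289), so the numbers were not taken as pairs. Under the block, which leaves fewer degrees of freedom, 22 genes of the whole table were called in place of 215. The standard errors of the scarce Htr3a, Htr4, Htr6 and Htr7 were 0.29 to 0.44 on the log2 scale, which holds counting error and the spread between libraries together. Htr4 had no value with edgeR, limma-voom or the filter on low counts.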
